A study of Mus musculus with 6 samples.

Results

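The Hox genes encode homeodomain transcription factors that sit in 4 clusters, Hoxa, Hoxb, Hoxc and Hoxd, on separate chromosomes. The members were the protein-coding genes of the RefSeq annotation (GRCm38) whose symbol is Hoxa, Hoxb, Hoxc or Hoxd followed by a number, and 39 of 21887 protein-coding genes met this rule: 11 in Hoxa, 10 in Hoxb, 9 in Hoxc and 9 in Hoxd. The number in a symbol is the paralogue number, from 1 at the end of a cluster that is used first and furthest forward in the embryo to 13 at the end used last and furthest back. Genes with the same number in different clusters are paralogues, copies of one ancestral gene. Hox genes give cells along the body axis and the limb their positional identity, and skeletal cells keep part of this pattern after birth, while Polycomb proteins hold unused Hox genes in a closed state.

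Chromatin accessibility was measured by ATAC-seq, in which the Tn5 transposase cuts and tags open chromatin, in an immortalized mouse osteoblast line. The 2 groups were OB Fam20c f/f, the line with floxed Fam20c alleles left intact (labelled as control), and OB Fam20c KO, which was made from it by infection with a lentivirus that carries Cre recombinase, each with 3 libraries named here f/f 1 to f/f 3 and KO 1 to KO 3. Both groups therefore share the immortalization and the floxed alleles, while only the KO cells were infected, so Cre expression, the infection and the loss of Fam20c (a kinase of secreted proteins) cannot be told apart. No source used here says whether the KO cells were 1 clone or a pool, or whether the replicates were separate cultures, so the p-values below measure only the spread between these libraries.

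Each deposited list holds the peaks that the authors' caller passed in 1 library. Peaks of the 6 lists that shared at least 1 bp were merged into 89410 regions. Of these, 112 lay over a Hox cluster or within 100 kb of its ends, 53 of them touched the clusters themselves, and 43 lay over a Hox gene or within 3 kb of it. The standing of a region in a library is the percentile of its highest peak by −log10 q within that library's own list, with 100 for the strongest. A missing peak means only that none passed the caller in that library, and the lists hold no read totals.

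The lists were unequal. KO 3 held 32958 peaks and the other 5 libraries held 62781 to 74797, although by the study's mapped read totals KO 3 was not the library with the fewest reads. Values without KO 3 are given beside the comparisons of the groups. The cells had a region in all 6 libraries within 3 kb of 10 of 12 osteoblast markers, among them Runx2, Sp7, Alpl and Col1a1, but Bglap and Ibsp had none in any library. Of the markers of other cell types, each list had a smaller share (3 of 4 chondrocyte, 3 of 5 adipocyte, 1 of 4 muscle, 2 of 5 epithelial, 1 of 4 hematopoietic and 3 of 4 endothelial genes). The share over all protein-coding genes was 63.9%. Without KO 3 these were 10 of 12 osteoblast, 3 of 4 chondrocyte, 4 of 5 adipocyte, 3 of 4 muscle, 3 of 5 epithelial, 3 of 4 hematopoietic and 3 of 4 endothelial genes, beside 70% of all protein-coding genes. The targeted gene Fam20c (chr5:138755081-138810063) had 1 region in all 6 libraries, with a best standing of 92.8, 94.8 and 93.0 in f/f 1 to f/f 3 and 97.8, 96.3 and 95.1 in KO 1 to KO 3. The stretch removed by Cre is not given in the sources used here, so these peaks do not check the labels.

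The promoter sequences that go with the main contrasts are shown first, from RefSeq (GRCm38.p6). Each runs from 250 bases before to 50 bases after a start of the gene and is written 5′ to 3′ on the gene's strand. The start used for Hoxc4, at 103034395, lies well inside the gene's span (103018097-103036856), and so do others, such as those of Hoxb8 and Hoxd10. Hoxa5 (chr6:52204538-52204837, minus strand) and Hoxc4 (chr15:103034145-103034444, plus strand) are, in Hoxa and Hoxc, the windows available here that overlapped the region of highest standing among the regions over such windows, and that of Hoxc4 was the only Hoxc window available. Hoxa2 (chr6:52164782-52165081, minus strand), Hoxb1 (chr11:96365508-96365807, plus strand) and Hoxd1 (chr2:74762730-74763029, plus strand) are the lowest-numbered genes of their clusters whose window overlapped no peak in any library, and Hoxa13 (chr6:52260831-52261130, minus strand) was added after its values were seen because it holds the region that differed between the groups. Capitals mark matches on either strand to the motifs TGANTCA (AP-1), CAGCTG (E-box), TGTGGT (Runx), TGATNNAT (Pbx-Hox), TAATTA (homeodomain) and AGGGGGC (part of the CTCF motif). No 2 matches overlapped in any Hox window.
Hoxa5: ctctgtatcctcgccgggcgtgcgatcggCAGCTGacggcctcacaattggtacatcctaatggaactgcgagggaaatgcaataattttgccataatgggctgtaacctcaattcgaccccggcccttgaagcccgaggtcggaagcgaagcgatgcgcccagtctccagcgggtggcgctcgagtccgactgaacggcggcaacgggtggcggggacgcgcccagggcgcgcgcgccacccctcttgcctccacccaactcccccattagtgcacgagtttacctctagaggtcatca
Hoxc4: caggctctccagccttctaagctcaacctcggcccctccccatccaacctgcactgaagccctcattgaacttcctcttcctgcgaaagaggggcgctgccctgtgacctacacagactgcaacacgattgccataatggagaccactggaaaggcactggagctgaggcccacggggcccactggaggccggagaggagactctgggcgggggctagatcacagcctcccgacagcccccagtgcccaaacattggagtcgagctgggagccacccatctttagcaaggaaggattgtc
Hoxa2: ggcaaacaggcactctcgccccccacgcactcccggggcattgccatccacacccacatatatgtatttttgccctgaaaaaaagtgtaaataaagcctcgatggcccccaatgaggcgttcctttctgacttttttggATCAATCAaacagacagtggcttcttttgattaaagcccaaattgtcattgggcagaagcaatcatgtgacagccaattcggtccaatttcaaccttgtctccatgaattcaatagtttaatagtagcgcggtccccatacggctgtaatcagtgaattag
Hoxb1: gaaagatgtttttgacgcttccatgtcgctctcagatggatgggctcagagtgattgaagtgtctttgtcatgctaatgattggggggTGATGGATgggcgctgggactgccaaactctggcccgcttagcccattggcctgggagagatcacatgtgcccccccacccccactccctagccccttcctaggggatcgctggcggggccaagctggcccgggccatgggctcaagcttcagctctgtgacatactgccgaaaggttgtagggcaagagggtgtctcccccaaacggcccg
Hoxd1: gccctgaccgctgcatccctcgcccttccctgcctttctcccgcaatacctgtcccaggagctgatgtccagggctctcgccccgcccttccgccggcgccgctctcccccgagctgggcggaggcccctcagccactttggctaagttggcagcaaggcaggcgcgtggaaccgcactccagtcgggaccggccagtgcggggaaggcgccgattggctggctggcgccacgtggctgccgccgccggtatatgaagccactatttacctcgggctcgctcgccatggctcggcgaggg
Hoxa13: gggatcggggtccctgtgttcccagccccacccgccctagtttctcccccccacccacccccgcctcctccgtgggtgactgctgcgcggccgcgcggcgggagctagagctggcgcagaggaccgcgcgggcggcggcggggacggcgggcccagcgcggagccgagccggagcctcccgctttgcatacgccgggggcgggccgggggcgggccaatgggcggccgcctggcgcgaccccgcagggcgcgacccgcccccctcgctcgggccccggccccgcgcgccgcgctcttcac

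Of these windows, Hoxa5 held 1 E-box match and 29 CpG dinucleotides, Hoxa2 and Hoxb1 each held 1 Pbx-Hox match, and Hoxc4, Hoxd1 and Hoxa13 held no match. The Hoxa13 window was the richest in CpG of the 24 Hox windows, with 45, and 81% of its bases were G or C. The Hoxd1 window held 29 CpG, as many as Hoxa5, and overlapped no peak. The available table holds 24 windows of 22 Hox genes, whose median CpG number was 14.5 against 7 over all 32851 windows. E-box matches lay in 4 of the 24 windows (16.3% of all windows), Pbx-Hox matches in 4 (8.85%), homeodomain matches in 2 (5.29%), matches to the CTCF part in 2 (10.6%), and AP-1 and Runx matches in 1 each (7.81% and 16.8%). These matches describe the letters of the windows only.

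Of the available windows, 10 were of Hoxa, 3 of Hoxb, 1 of Hoxc and 10 of Hoxd, so that they do not stand for the 39 genes. In all, 4 of the 24 windows (16.7%), those of Hoxa3, Hoxa5, Hoxa13 and 1 of 2 for Hoxa10, overlapped a region present in all 6 libraries, beside 38.3% of all windows. These were 4 of the 10 Hoxa windows and 0 of the 10 Hoxd windows. The Hoxc4 window overlapped one in all libraries but KO 3, and the other 19 overlapped none.

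Peaks were spread over Hoxa, Hoxb and Hoxc and were few in Hoxd. In all, 32 of the 39 genes had a region within 3 kb in at least 1 library, and 27 (69.2%) had one in all 6 libraries, beside 63.9% of all protein-coding genes. Without KO 3 it was 29 (74.4%), beside 70%. All 11 Hoxa genes were among the 27, with 8 of 10 Hoxb genes, 7 of 9 Hoxc genes and 1 of 9 Hoxd genes. Neighbouring genes often shared a region, since Hox genes lie close together, and 19 genes had one over the gene itself in all 6 libraries. By that count Hoxa was not complete: Hoxa2, Hoxa6, Hoxa7, Hoxa9 and Hoxa11 dropped out, as did Hoxb7, Hoxc8 and Hoxc12. For the counts of 32 and 19 genes, the share of all protein-coding genes was not counted.

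**Figure D1:**
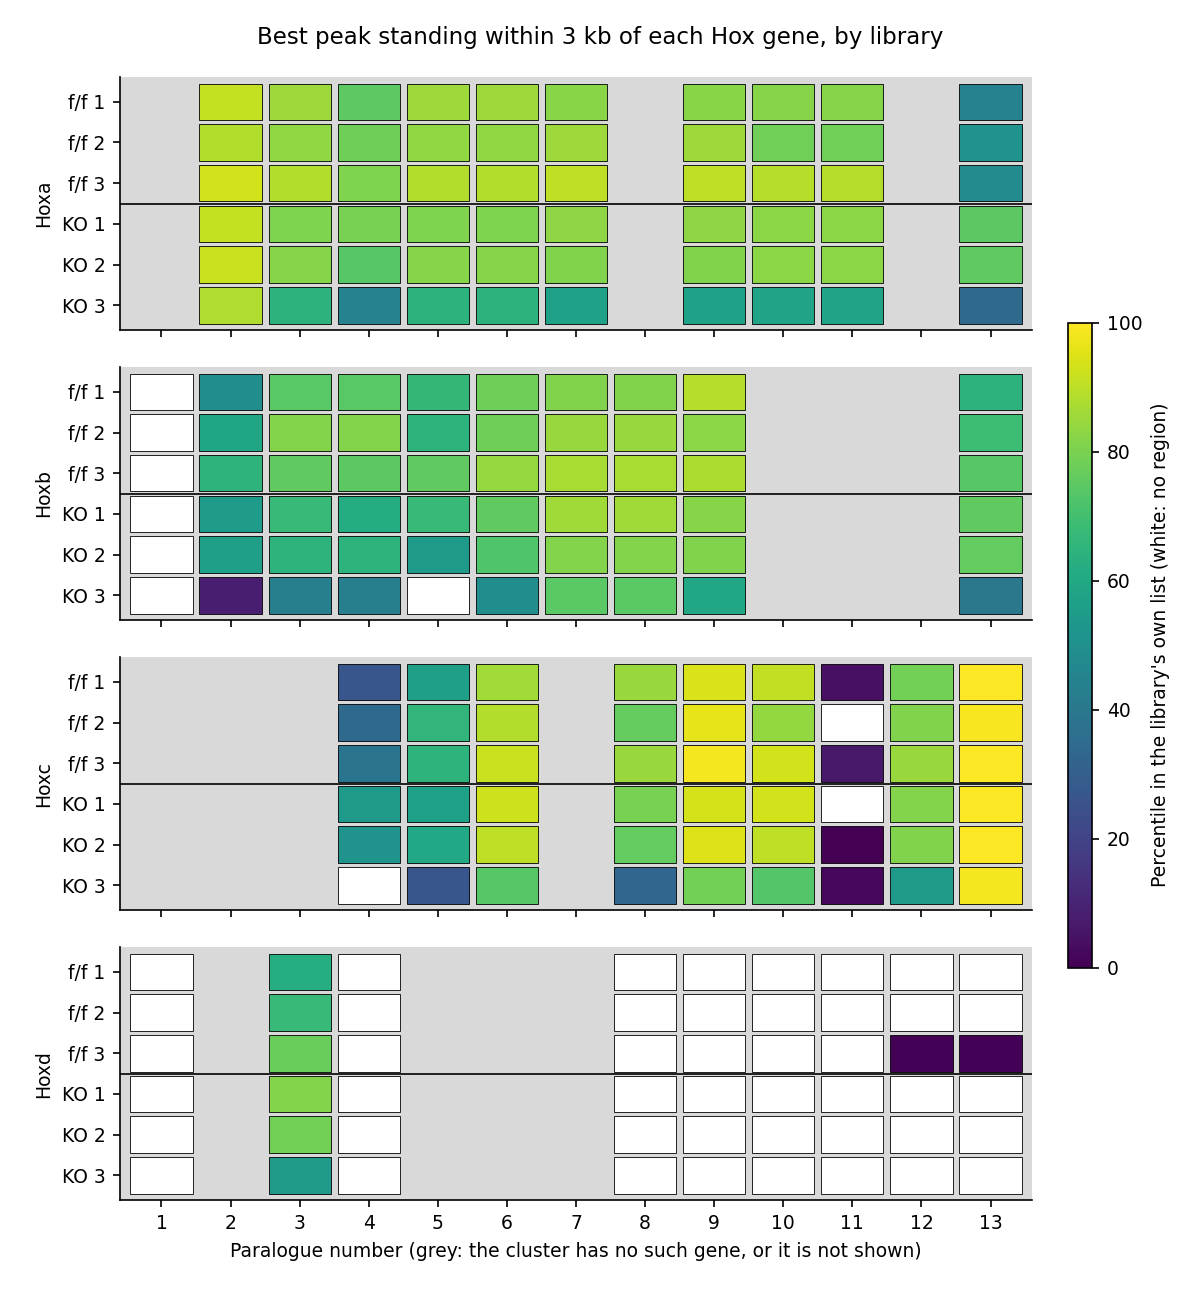
Each square is 1 Hox gene in 1 library, coloured by the percentile standing of the best peak within 3 kb, with the paralogue number on the horizontal axis, the libraries on the vertical axis and 1 panel per cluster (white for no region, grey where a cluster has no such gene or it is not shown). Every Hoxa gene shown is filled in all 6 libraries, and in Hoxd only Hoxd3 is filled throughout.

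By paralogue number, 6 of the 8 genes numbered 1 to 3 had a region in all 6 libraries, 11 of 15 numbered 4 to 8 and 10 of 16 numbered 9 to 13. Within Hoxd the 3 classes gave 1 of 2, 0 of 2 and 0 of 5. All genes numbered 2, 3, 6 and 7 had a region in every library, in each cluster that has them. Outside Hoxd, every Hox gene but Hoxb1 had a region in at least 1 library, whatever its paralogue number.

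Hoxa, on chromosome 6 (52155367-52260880), carries genes of the limb and the axial skeleton. The region (chr6:52203483-52204806) over Hoxa5, Hoxa3 and the antisense transcript Hoxaas3 had a standing of 85.2, 83.4 and 88.5 in f/f and 80.6, 81.7 and 64.3 in KO. Hoxa5 takes part in the patterning of the neck and upper thorax, and the 3 KO libraries were all below the 3 f/f libraries in this standing, as in 8 of the 42 shared Hox regions (19%) and 25.5% of all shared regions. Its fold over local background overlapped between the groups (log2 difference −0.07, SE 0.112, limma adjusted p = 0.749). The region between Hoxa7 and Hoxa9 (chr6:52221312-52222414) had 82.1, 85.5 and 90.2 in f/f and 83.0, 81.0 and 57.1 in KO, so that the groups overlapped.

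Among the other Hoxa genes, the region within 3 kb of Hoxa10 and Hoxa11 (chr6:52239687-52240940), genes that pattern the upper and lower limb bones, stood at 81.9, 78.3 and 88.8 in f/f and 82.7, 82.5 and 58.0 in KO. The Hoxa3 gene, which spans much of the cluster and patterns pharyngeal tissue, had 8 regions within 3 kb, the most of any Hox gene, and 5 of them were in all 6 libraries. Peaks covered 9.77% of the Hoxa cluster on average in f/f (SD 0.466, n = 3) and 9.88% in KO (SD 2.97, n = 3), where KO 3 alone was below f/f and the mean of KO 1 and KO 2 was 11.6%.

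Hoxb, on chromosome 11 (96194316-96368254), has its genes 1 to 9 at one end and Hoxb13 at the other, with a wide gap between. The strongest region of the locus (chr11:96413209-96414413) lay outside, beyond the Hoxb1 end, with 98.3, 95.3 and 97.0 in f/f and 94.2, 94.1 and 77.6 in KO. The next (chr11:96260065-96261081), within the noncoding gene Gm53 in the gap, had 90.3, 90.0 and 94.2 in f/f and 87.5, 86.1 and 73.6 in KO. In both, all 3 KO libraries were below all 3 f/f libraries, as in 40% of the shared regions of chromosome 11, and the log2 difference in fold was −0.02 (limma adjusted p = 0.94) and −0.03 (limma adjusted p = 0.902). With −log10 q in place of fold both were called (limma adjusted p = 0.0291 and 0.0362), as were 26.5% of all shared regions. The third (chr11:96284125-96285074), at Hoxb8 and within 3 kb of Hoxb7, had 81.0, 84.5 and 87.0 in f/f and 85.7, 81.3 and 74.5 in KO, and there the groups overlapped.

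Hoxb1, a gene of the hindbrain, was the only gene of Hoxb with no region in any library, and the nearest region was 12056 bp away, at Hoxb2. Hoxb5 had a region in every library but KO 3, with 66.3, 64.5 and 75.6 in f/f and 67.5 and 53.9 in KO 1 and KO 2. Peaks covered 6.89% of the cluster in f/f (SD 0.863, n = 3) and 5.1% in KO (SD 1.6, n = 3), or 6.01% without KO 3.

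Hoxc, on chromosome 15 (102921131-103036856), held the strongest Hox regions. The region at Hoxc13 (chr15:102920187-102921863), a gene best known for hair and nail, stood at 99.5, 99.1 and 99.5 in f/f and 99.4, 99.3 and 98.6 in KO, that is, among the top peaks of every list. Its fold ran from 9.69 in KO 3 to 14.6 in f/f 1. The second (chr15:102942792-102943852) lay 210 bp from Hotair, a noncoding RNA transcribed between Hoxc12 and Hoxc11, and within 3 kb of no Hox gene. It had 95.7, 97.9 and 98.0 in f/f and 96.7, 96.0 and 88.1 in KO. The third (chr15:102980787-102982432), at Hoxc9, a gene of the thoracic and limb axis, had 94.2, 96.4 and 98.7 in f/f and 93.4, 94.7 and 78.7 in KO. Hoxc10 (91.0, 83.8 and 93.2 in f/f, 93.2, 90.0 and 73.2 in KO) and Hoxc6 (86.0, 88.4 and 91.9 in f/f, 92.4, 89.9 and 73.5 in KO) followed, and in these 3 genes the groups overlapped.

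Hoxc11, a posterior limb gene, stood apart from its neighbours Hoxc10, Hoxc12 and Hoxc13. Its only region (chr15:102954848-102955237) had a peak in f/f 1, f/f 3, KO 2 and KO 3, with standings of 3.93, 6.5, 0.167 and 1.84, near the bottom of each list. Hoxc4 had no peak in KO 3 at the region over its available window (chr15:103034044-103035891). There f/f 1 to f/f 3 stood at 26.8, 33.6 and 38.5 and KO 1 and KO 2 at 53.9 and 51.3, both above all f/f libraries. How many of all regions had this order was not counted. The region was not among the 10 Hox regions that limma called without KO 3. Peaks covered 9.72% of the Hoxc cluster in f/f (SD 0.698, n = 3) and 7.83% in KO (SD 1.91, n = 3), or 8.9% without KO 3.

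Hoxd, on chromosome 2 (74668225-74765142), was the exception. Only 3 regions touched the cluster, 0.31 per 10 kb, against 1.52 in Hoxa, 0.92 in Hoxb and 1.55 in Hoxc. Peaks covered 0.941% of Hoxd in f/f (SD 0.27, n = 3) and 0.815% in KO (SD 0.407, n = 3), or 0.97% without KO 3. The 1 region in all 6 libraries (chr2:74715732-74716446) lay within Hoxd3 and over the start of the antisense transcript Hoxd3os1, with 61.9, 67.5 and 77.3 in f/f and 81.5, 78.5 and 53.9 in KO. Here KO 1 and KO 2 were above all f/f libraries and KO 3 below them. The share of all regions with this order was not counted, and limma on fold did not call the region with or without KO 3. With −log10 q in place of fold it was called (log2 difference 0.73, limma adjusted p = 0.0163), as were 26.5% of all shared regions.

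The genes Hoxd1, Hoxd4, Hoxd8, Hoxd9, Hoxd10 and Hoxd11 had no region in any library. Hoxd9 to Hoxd13 pattern the limb from the forearm to the digits, and the nearest region to Hoxd11 was 6417 bp away and that to Hoxd10 11132 bp away, a single weak peak between Hoxd13 and Hoxd12 (chr2:74672877-74673141) that was in f/f 3 only, at a standing of 0.433. Hoxd1 was 12859 bp from a region in 2 libraries and Hoxd4 was 5532 bp from the Hoxd3 region. The flanks of Hoxd were accessible at the promoters of other genes: the region at Lnpk (chr2:74578082-74579453) had 95.5, 93.2 and 95.6 in f/f and 97.7, 96.7 and 85.9 in KO, and that at Mtx2 (chr2:74825520-74826577) had 83.0, 84.7 and 86.9 in f/f and 86.1, 85.7 and 73.2 in KO. Strong peaks thus stood on both sides of the cluster in every library, but the Hoxd flanks were sparse too. They held 3 regions, 0.15 per 10 kb, against 0.55 in the flanks of Hoxa, 0.95 in those of Hoxb and 1.3 in those of Hoxc. The densities of clusters and flanks were not set against those of the whole chromosomes. Chromosomes 6, 11, 15 and 2 held 4574, 7014, 8009 and 6704 regions.

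**Figure D2:**
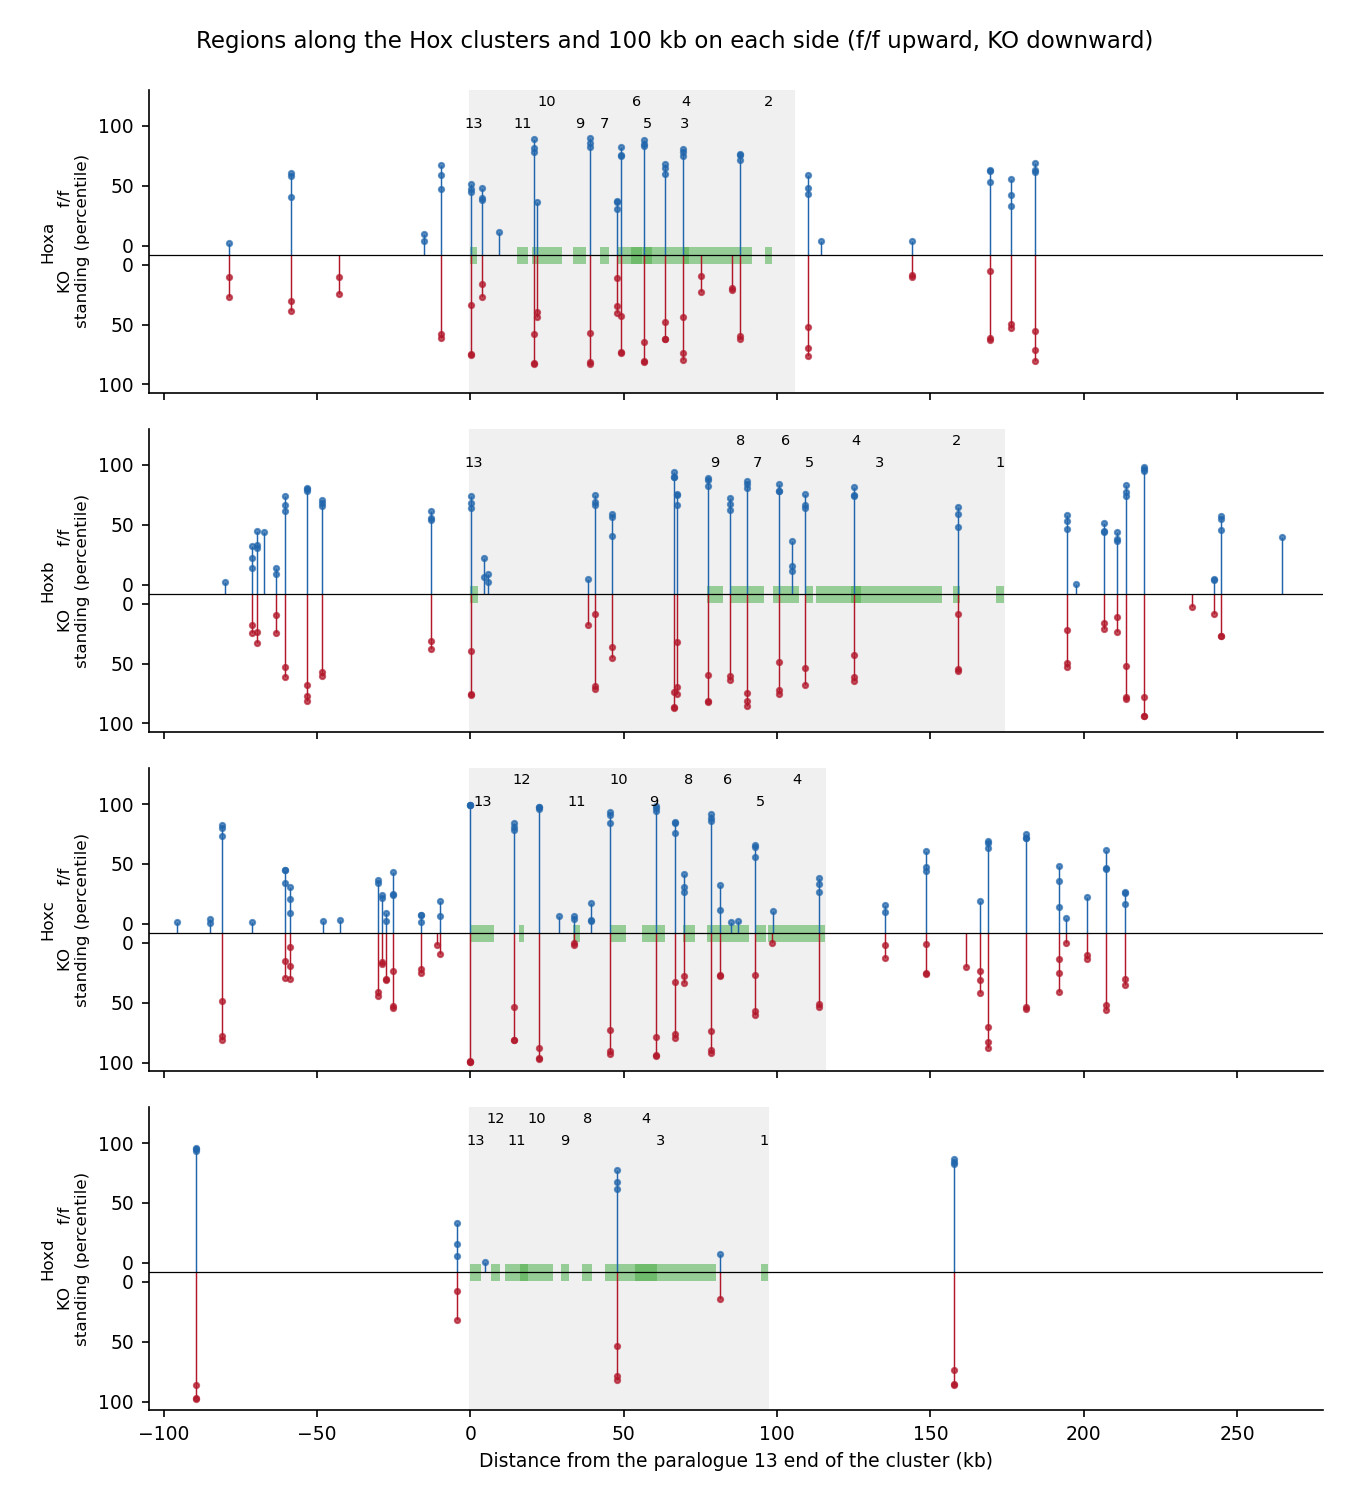
Regions along each cluster and 100 kb on each side, at their distance in kb from the paralogue 13 end (horizontal axis), with the percentile standing of each f/f library upward in blue and of each KO library downward in red. Grey shading marks the cluster, green bars the genes and the numbers above them the paralogue numbers, and Hoxd has 3 regions inside its shaded span, fewer than each other cluster. A pair of Hoxa regions is not shown.

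The clusters also encode microRNAs, short RNAs that repress transcripts matching their seed (bases 2 to 8), and their mature sequences are shown because paralogous clusters share seeds. In RefSeq the 5p forms fall into 2 seed groups, miR-10 (Hoxb and Hoxd) and miR-196 (Hoxa, Hoxb and Hoxc), and miR-615 stands alone in Hoxc. The seed is in capitals.
mmu-miR-10a-5p: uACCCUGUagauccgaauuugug
mmu-miR-10b-5p: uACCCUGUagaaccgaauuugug
mmu-miR-196a-5p: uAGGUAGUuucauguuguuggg
mmu-miR-196b-5p: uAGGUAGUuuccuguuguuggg
mmu-miR-615-3p: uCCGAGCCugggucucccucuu
None of their 6 genes was overlapped by a region. Mir615, inside Hoxc5, was 361 bp from the nearest one, Mir10a 1103 bp, Mir196a-1 3110 bp, Mir196a-2 5950 bp, Mir196b 7667 bp and Mir10b 9624 bp. Each of these nearest regions was present in all 6 libraries. Of the pair with the miR-10 seed, the copy in Hoxb was therefore much closer to an accessible region than the copy in Hoxd.

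The comparison of KO with f/f asks whether loss of Fam20c came with a different Hox accessibility. The number of Hox cluster regions per library was 80, 79 and 95 in f/f and 85, 84 and 45 in KO. KO 3 alone lay below the others, as its list was also the shortest, and the difference (KO minus f/f, −13.3 regions) was within the spread of the libraries (exact permutation test, two-sided, p = 0.6, where 20 assignments of 3 against 3 allow no p below 0.1). Without KO 3 it was −0.167 (p = 1, exact permutation test). As a share of a library's own regions the order turned: 0.13%, 0.128% and 0.128% in f/f and 0.137%, 0.132% and 0.141% in KO, with all KO libraries above all f/f libraries (p = 0.1, the smallest the exact permutation test allows, with and without KO 3).

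**Figure D3:**
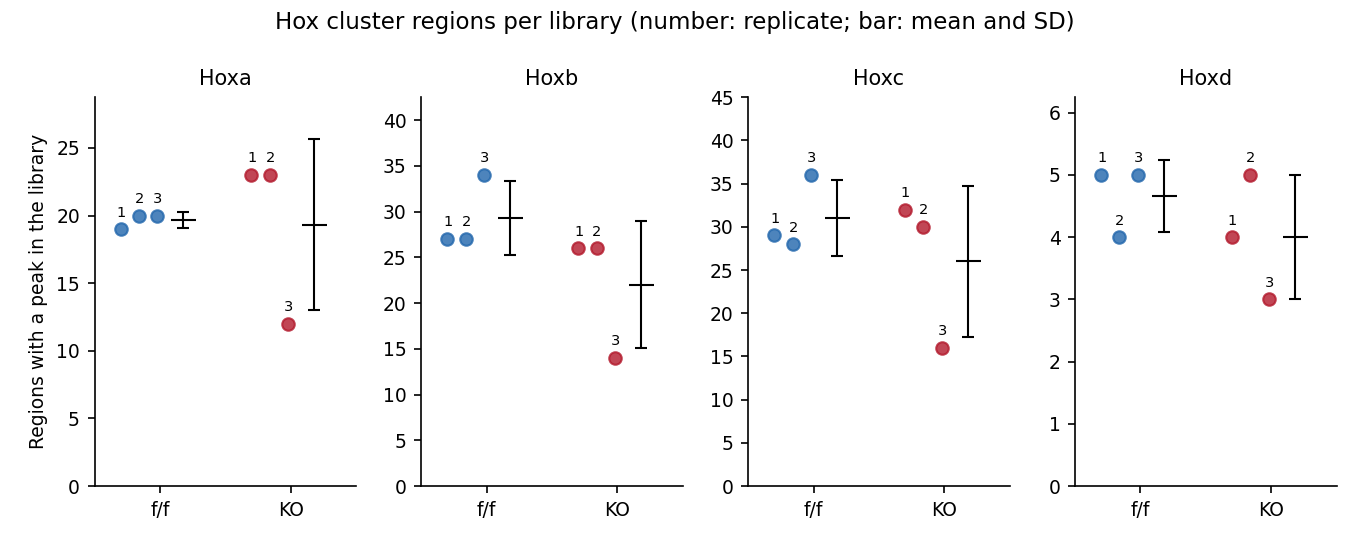
Number of regions with a peak (vertical axis) in each f/f library (blue) and KO library (red) for each cluster and its flanks, with the replicate number above each point and the mean and SD (n = 3) as black bars. KO 3 is lowest in Hoxa, Hoxb, Hoxc and Hoxd, and in Hoxa KO 1 and KO 2 lie above all f/f libraries.

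By cluster, Hoxb had 27, 27 and 34 regions in f/f and 26, 26 and 14 in KO, the only cluster in which all KO libraries were below all f/f libraries (exact permutation test, p = 0.1, adjusted over the 4 clusters p = 0.4). Without KO 3 the Hoxb difference went from −7.33 to −3.33 regions (exact permutation test, p = 0.5). Hoxa had 19, 20 and 20 in f/f and 23, 23 and 12 in KO (p = 1, adjusted p = 1, exact permutation test). Without KO 3, Hoxa was higher in KO by 3.33 regions and the groups did not overlap, at the smallest p that the exact permutation test allows (0.1). Hoxc (p = 0.6) and Hoxd (p = 0.7) had an adjusted p of 0.933 each in this exact permutation test. When every list was shortened to the same number of peaks, Hoxb had a mean of 18.7 regions in f/f and 16 in KO, and Hoxc had 12 in f/f and 14.7 in KO, both at p = 0.1 in the exact permutation test.

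At the level of genes the groups overlapped. Hox genes with a region numbered 30, 29 and 32 in f/f and 29, 30 and 28 in KO, a difference of −1.33 genes (exact permutation test, p = 0.5). All 11 Hoxa genes had one in each of the 6 libraries, and no Hox gene had a region in all libraries of one group and none of the other. The share of all protein-coding genes with that pattern was not counted. Hoxb5 and Hoxc4 had a region in 5 libraries and lacked one only in KO 3.

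The 42 Hox regions with a peak in all 6 libraries (37.5% of the 112, beside 33.4% of all regions) had a median standing of 76.3, 75.7 and 81.5 in f/f and 78.8, 78.4 and 51.8 in KO. The difference of −8.2 percentile points (exact permutation test, p = 0.6) was near that of all shared regions, −8.07. In the same 42 regions it came to 0.727 (p = 1, exact permutation test) without KO 3. Over all Hox regions shared by the remaining libraries it was −4.15 (67.5 in f/f and 63.3 in KO, exact permutation test, p = 0.4). Hoxb had the largest difference of the 4 clusters (−12.2, p = 0.1 in the exact permutation test), beside −10.2 for the other shared regions of chromosome 11. This rested on KO 3: without it, in the same regions, Hoxb was at −3.13 (p = 0.2) and Hoxa, at 3.94 (p = 0.3), was the furthest from 0 (exact permutation test). These regions were still chosen by their peak in KO 3.

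Regions found in one group only were few. Of the 112 Hox regions, 2 (1.79%) had a peak in 3 of 3 f/f libraries and 0 of 3 KO libraries, beside 3.75% of all regions, and none had the opposite pattern, beside 0.179%. One (chr11:96299136-96299507) lay within Hoxb6, a gene of the trunk and limb bud, and the transcript Hoxb5os, and stood at 11.6, 15.7 and 36.3 in f/f. The other (chr15:102960323-102960740) lay between Hoxc11 and Hoxc10, with 3.46, 2.51 and 17.7. Both were weak peaks in the libraries that had them, and the Hox share was below the background.

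Without KO 3, the same 2 regions were found in f/f only (3.82% of all regions), and 3 regions (2.68%) were found in KO only, beside 2.93% of all regions. All 3 were in or near Hoxa: chr6:52175282-52176170 (19.2 and 20.8 in KO 1 and KO 2) and chr6:52185252-52185854 (9.49 and 22.9) lay within Hoxa3, and chr6:52303520-52303808 (10.4 and 24.3) lay beyond the Hoxa13 end. They were 3 of the 27 Hoxa regions (11.1%), beside 4.0% of the regions of chromosome 6, a difference that was not tested.

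The strength of shared regions was compared with limma on the log2 of the authors' fold over local background, quantile-normalized, over all 29849 regions with a peak in every library. At a Benjamini-Hochberg adjusted p of 0.05 it called 983 regions (3.29%), 538 higher in KO (1.8%) and 445 lower (1.49%). Of the 42 Hox regions, 2 were called, 1 in each direction, a share of the same order as the background. The median difference was −0.06 on the log2 scale in the Hox regions, 15 of which were above 0, and 0.01 over all regions.

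The region at Hoxa13 (chr6:52259797-52261343), the gene of the hand, foot and hindgut, was higher in KO. Its fold over local background was 5.96, 5.4 and 5.29 in f/f and 10.6, 11.2 and 4.78 in KO. KO 1 and KO 2 were well above all f/f libraries, while KO 3 was below them before normalization and above them after it (log2 values of 2.44, 2.60 and 2.32 in f/f and 3.14, 3.20 and 2.90 in KO). The log2 difference was 0.63 (SE 0.148, limma adjusted p = 0.0469). Without KO 3 it was 0.8 (limma adjusted p = 0.00331), but without any one of the other 5 libraries the adjusted p was above the 0.05 threshold, between 0.11 and 0.212, and with median centring in place of quantile normalization it was 0.0501.

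The same region also differed in where its peaks lay. In f/f it was made of 2 separate peaks, one over the promoter window with folds of 4.73, 3.97 and 5.13, and a stronger one inside the gene with summits 781, 724 and 726 bp from the start. In KO 1 and KO 2 a single peak covered both places, with its summit 37 and 88 bp before the start, and in KO 3 the 2 peaks were separate but the one at the promoter was the stronger (fold of 4.78 against 3.13, summit 82 bp before the start). The promoter peak of KO 3 was within the f/f range. The summits of the strongest peaks in the 2 groups were thus at least 200 bp apart, which held for 1 of the 42 Hox regions (2.38%) and for 1.05% of all shared regions, a count chosen after this region had been seen.

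**Figure D4:**
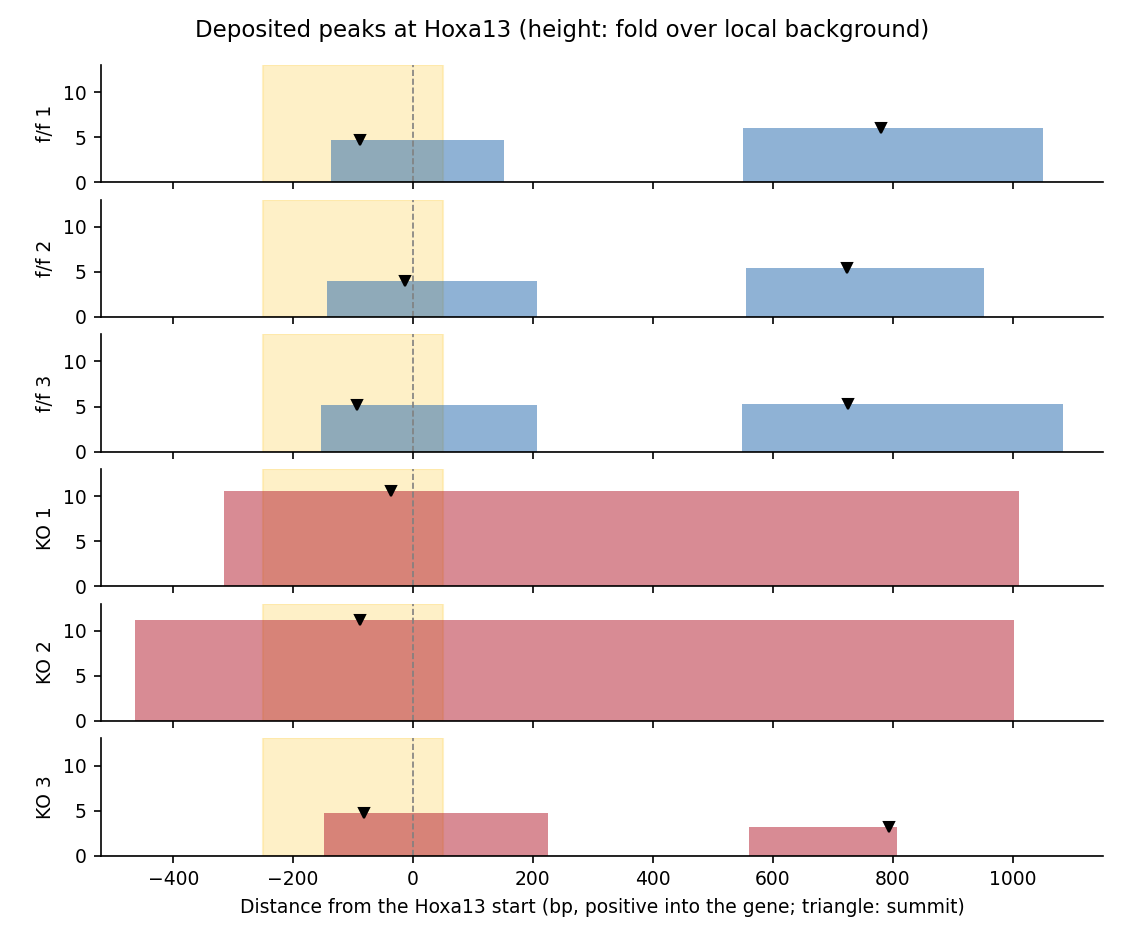
Deposited peaks at Hoxa13 in each library, with the distance from the gene's start in bp on the horizontal axis (positive into the gene) and the fold over local background as the height, triangles at the summits and the promoter window in yellow. The strongest f/f peaks have summits 724 to 781 bp inside the gene, and the strongest KO peaks have theirs 37 to 88 bp before its start.

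The other called region (chr15:103069199-103069833) lay in the flank beyond the Hoxc4 end, over no annotated gene, and was lower in KO. Its fold was 7.32, 4.52 and 8.32 in f/f and 4.39, 4.27 and 2.49 in KO, so that the 3 KO libraries were below the 3 f/f libraries, although KO 1 and f/f 2 were close. How many of all shared regions had this order of folds was not counted. By standing the order was the same, as in 25.5% of all shared regions and 26.2% of those of chromosome 15. The log2 difference was −0.92 (SE 0.195, limma adjusted p = 0.0324), and −0.69 without KO 3 (limma adjusted p = 0.0182). It lost its call without f/f 1, f/f 2, f/f 3 or KO 2, with limma adjusted p between 0.0539 and 0.159.

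**Figure D5:**
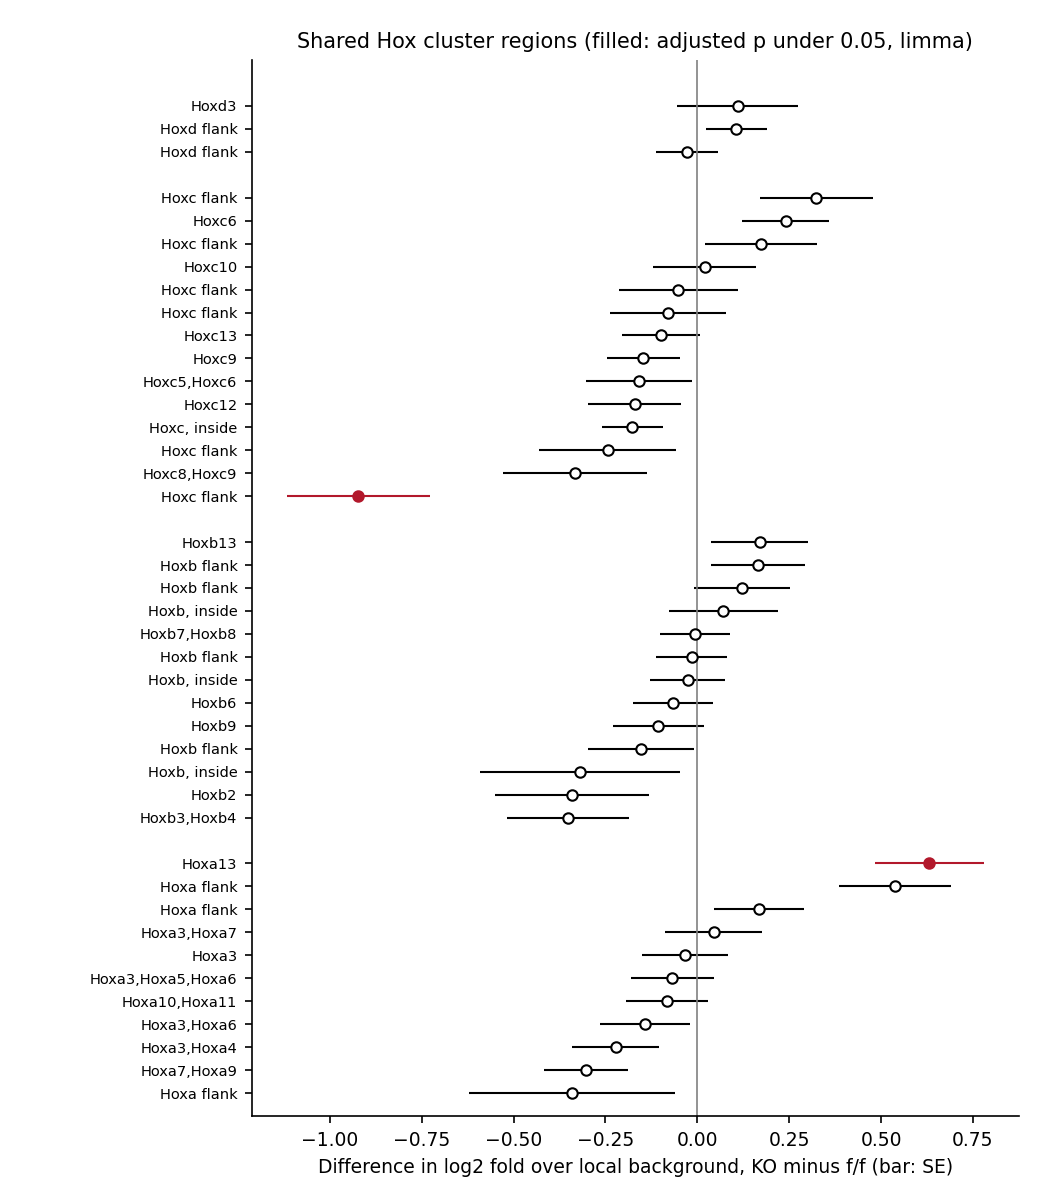
Difference in log2 fold over local background, KO minus f/f (horizontal axis, bar for the SE), of the shared Hox regions (1 is not shown), ordered by size within each cluster and named by the Hox genes within 3 kb. The filled points, Hoxa13 at 0.63 and a Hoxc flank at −0.92, are the 2 called regions.

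The strongest regions at Hoxb, Hoxc and Hoxd did not pass the test. The log2 difference was −0.10 (SE 0.106) at Hoxc13, −0.18 (SE 0.0834) beside Hotair, −0.02 (SE 0.0972) at the Hoxb flank and 0.11 (SE 0.0842) at Lnpk, with limma adjusted p from 0.251 to 0.94. At Hoxd3 it was 0.11 (SE 0.165, limma adjusted p = 0.722). With −log10 q in place of fold, the Hoxb flank region and Hoxd3 were called, but not those at Hoxc13, Hotair or Lnpk.

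Without KO 3, 65 Hox regions had a peak in the other 5 libraries and 10 were called (15.4%), beside 11.5% of the 46992 regions tested. There 3 were higher in KO and 7 lower. The higher ones were Hoxa13, a flank region of Hoxa (chr6:52150221-52151041, log2 difference 0.61) and a flank region beyond Hoxc13 (chr15:102904711-102905304, 0.58). Among the lower ones were a region within Hoxa3 at the transcript Gm15050 (chr6:52172336-52173418, −0.62, limma adjusted p = 0.000921) and a region within 3 kb of Hoxa13 (chr6:52257076-52257370, −0.66, limma adjusted p = 0.0231), so that neighbouring regions at Hoxa13 differed in opposite directions. The Evx1 flank region (chr6:52318548-52319964, −0.62) and 4 flank regions of Hoxb and Hoxc made up the rest of the lower ones.

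The genes that work with or on Hox proteins were described by fixed lists. All 9 Hox cofactors on the list had a region in all 6 libraries, beside 63.9% of all protein-coding genes. Among them were Meis1 to Meis3, Pknox1 and Pknox2, homeodomain partners that bind DNA with Hox proteins. The cofactors had 73 regions in all, 1 of them in f/f only, none in KO only and, without KO 3, 3 in KO only. Over all regions these 3 patterns made up 3.75%, 0.179% and 2.93%. All 15 Polycomb and trithorax genes, which keep Hox genes repressed or active, had one too, with 53 regions, 1 in f/f only and none in KO only. Of the 8 ParaHox and Evx genes, relatives of the Hox genes, none had a region in all 6 libraries. Without KO 3 it was 4 of 8, beside 70% of all protein-coding genes, and Cdx4 and Pdx1 had none in any library. Evx1 and Evx2, which sit beside Hoxa13 and Hoxd13, had 1 region each in every library but KO 3, at 58.4, 40.4 and 61.0 in f/f and 30.1 and 38.4 in KO for Evx1.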

How the data were processed

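ATAC-seq libraries came from f/f (n = 3) and KO (n = 3) osteoblasts. According to the study's methods and the submitters' processing notes, the authors aligned reads with BWA to mm10 and called peaks in each library with MACS2 2.1.2. The deposited lists give, per peak, a display score, a fold (a ratio of the pileup to the local background), and −log10 p and −log10 q values. The authors compared reads in peaks with DESeq2, which needs counts that these lists do not hold. The depth behind each peak is unknown from the lists, and the study's read totals per library were read but are not printed. The lowest −log10 q per list was 1.30 to 1.34.

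From these lists, peaks sharing 1 bp were merged (Python 3.11.15), and regions were assigned to RefSeq spans (GRCm38.p6, the mm10 assembly). Groups were taken from the sample labels. Counts and standings were compared by exact permutation over libraries, and log2 folds of shared regions by limma 3.58.1 (R 4.3.3; quantile normalization, trended eBayes, Benjamini-Hochberg over all 29849 regions, threshold 0.05). A fold is that of the highest peak of a region. Shared regions are those passing in every list, so regions lost in one group are not tested. The fit and the merging were tested on simulated data. The members and gene lists were chosen with earlier results of these data known. Named were the 3 highest regions per cluster, those only in 1 group, those called, and genes with no region. Hotair, Gm15050, the microRNA genes and the other single Hox genes given with values were chosen after their values were seen. Alternatives covered the q threshold, list length, overlap rule, summit windows, extensions, scaling, the replicate block and each library left out. Some genes and the values at them are not reported here. The gene lists without KO 3, the share of regions with separated standings and the comparison of summit positions were added after seeing the data.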

Additional observations from a re-analysis of the deposited data

How the results depend on the processing

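The lists hold no read totals and KO 3 had the shortest list, though not the fewest mapped reads by the study's totals; the causes of the changes below were not tested. With every list at an equal number of peaks, the difference (KO minus f/f) turned to 1 for Hox cluster regions per library and to 1.67 for Hox genes with a region (exact permutation test, p = 0.7 and p = 0.2), to 1 for Hoxa and 2.67 for Hoxc, and 1 region was in f/f only and 1 in KO only. Over all 42821 regions of that setting, 1213 were in f/f only and 1112 in KO only. As a share of a library's regions, the difference in Hox cluster regions turned to 0.00774 percentage points. With −log10 q of at least 5, Hoxd turned to 0.333 regions, 1 region was in f/f only and 0 shared Hox regions were called. Of all 76357 regions of that setting 2708 were in f/f only, and limma called 596 of the 26250 shared ones (2.27%). Hoxa ranged from −2.17 to 3.33 with a library left out, the latter without KO 3. A peak in at least 2 of 3 libraries of a group and none in the other was found in 6 Hox regions for f/f and 3 for KO. For this pattern the count over all regions is not given here. With a library left out, f/f-only Hox regions ranged from 2 to 5 and KO-only Hox regions from 0 to 3. Over all regions these counts ranged from 3380 to 5376 and from 191 to 2594. The 2 calls among shared Hox regions were 1 with median centring, 6 with array weights, 10 with −log10 q in place of fold, and 0 to 10 with a library left out; over all regions the calls were 790, 5033, 7903 and 0 to 5406, so the number of calls rests on these settings. The number of Hox genes with a region in every library stayed between 19 and 29, and Hoxd3 was the only Hoxd gene among them under every alternative run. A region in at least 2 of 3 libraries of each group was found for 30 Hox genes. The matching share of all protein-coding genes was counted only for the full lists within 3 kb, with and without KO 3.

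The labels do not say whether the replicate numbers pair the libraries. Deviations of same-numbered libraries correlated at 0.0181, −0.369 and −0.456, and those of differently numbered ones at −0.352 to 0.425. With 3 libraries per group these values cannot tell whether same-numbered libraries were handled together. With the replicate block, differences were −13.3 regions, −1.33 genes and −8.2 points of standing as before, and 0 Hox regions and 68 of all regions were called (limma).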
